A study of Mus musculus with 12 samples.

Results

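The genes described here encode the extracellular matrix, the integrins that bind it and the enzymes that cut or crosslink it. They were chosen by gene name: the collagen chains, laminin chains, integrin subunits, Adam, Adamts and Adamts-like genes, matrix metalloproteinases, their Timp inhibitors, fibulins, fibrillins, thrombospondins, hyaluronan and proteoglycan link proteins, and lysyl oxidases. A gene was to be left out where its raw count was 0 in all 4 tumors of a group, which applied to 0 genes. Of 2876 genes listed in either deposited table, 37 were members, with 23 among the 1589 genes listed for V-125 and 25 among the 1784 listed for bexarotene. In the mouse annotation 191 protein-coding genes carry such names.

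The study compared RNA from mammary tumors of female MMTV-Neu mice, which carry a HER2/Neu transgene under the mouse mammary tumor virus promoter. Mice with tumors were fed powdered control chow mixed with vehicle, or the same chow with V-125 or bexarotene, each at 100 mg/kg diet for 10 days. Both compounds are agonists of the retinoid X receptor (RXR), a nuclear receptor that acts as a partner of other nuclear receptors. Each group had 4 mice, and whole frozen tumor pieces were used, so tumor cells, stroma, vessels and leukocytes were measured together.

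Collagens form the fibers and sheets that carry tissue load, and laminins join with type IV collagen in the basement membrane under epithelia and around vessels. Integrins are pairs of an alpha and a beta subunit that hold cells to these proteins and pass signals into the cell. Metalloproteinases of the Mmp, Adam and Adamts families cut matrix and cell-surface proteins, while lysyl oxidases crosslink collagen and elastin. In mammary tumors, the matrix comes from fibroblasts and from the epithelial cells themselves.

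The tumors of the V-125 comparison had 15571690 to 22574865 reads on genes. The luminal epithelial markers Epcam and Cdh1 were high in all 8, with 28485 to 53468 normalized counts (read counts divided by a size factor for each tumor) for Epcam. They were not constant between groups. Epcam had 28485 to 34948 with V-125 and 37941 to 53468 in controls, without overlap, and Cdh1 had a lower mean with V-125, with overlap. Neither table lists a gene whose unadjusted p-value is 0.05 or more, so every listed gene, member or not, was selected on the difference that its table describes. For that reason the values of the listed members are a description, and a member that is not listed has no value here. Col1a1, Col1a2 and Col3a1, the Timp inhibitors, the thrombospondins and the fibrillins are among those not listed in either table. Adjusted p-values given below rest on the spread between mice of a group. In whole tumors, fewer cells of a type and less RNA per cell cannot be told apart.

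With V-125, most listed members had lower means than in control tumors, and all 9 listed collagen genes did. Of the 23 members, 19 had a lower and 4 a higher mean, while 51.4% of all genes listed for V-125 had a higher mean. The median log2 ratio of means was -0.86, beside 0.36 over all genes listed for V-125. The 4 with a higher mean were the integrin subunits Itgb5 and Itgb2, the protease Adamts15 and the laminin chain Lama3. In 9 members the 4 V-125 tumors all lay below the 4 control tumors, which is 39.1% of the members, while 17.6% of all listed genes were separated in that direction. In 1 member, Lama3, all 4 lay above, where 21.1% of all listed genes were separated upwards. The groups overlapped in the other 13 members, 10 with a lower and 3 with a higher mean. For a single gene, complete separation of 4 from 4 tumors gives the smallest two-sided exact permutation p possible, 0.0286.

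**Figure D1:**
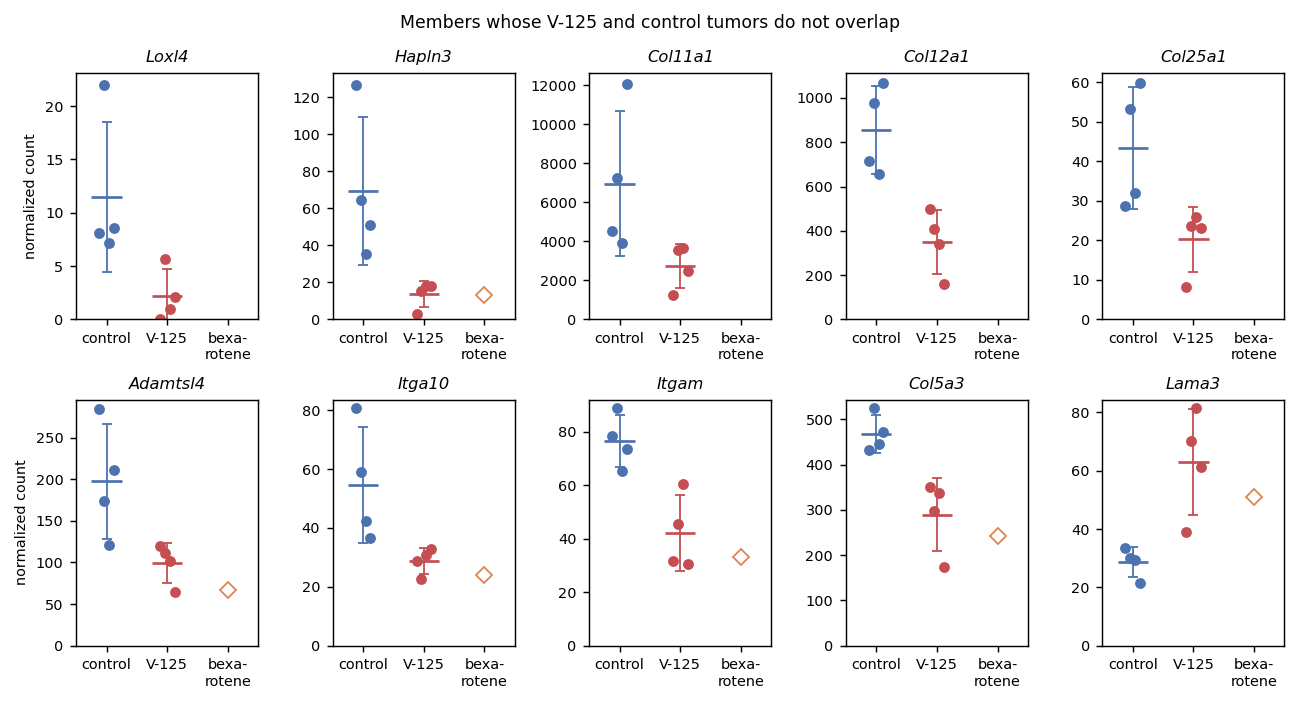
Normalized counts (vertical axis, starting at 0) of the 10 members whose V-125 and control tumors did not overlap, with 1 point for each tumor, and the mean and SD of each group. An open diamond is the authors' mean of the bexarotene tumors and is drawn only for members listed for bexarotene. Lama3 is the 1 member with higher V-125 values, and in the other 9 every V-125 tumor lies below every control tumor.

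Fibrillar collagens are the rod-like chains of banded fibers, and Col11a1 and Col5a3 were listed for V-125. Col11a1, a minor fibrillar chain of cartilage that is also made in many carcinomas (chr3:114030540-114220718, plus strand, GRCm38), had 1261, 3557, 3666 and 2489 normalized counts in V-125 replicates 1 to 4. In control replicates 1 to 4 it had 4515, 7258, 3914 and 12063. All V-125 tumors were below all controls, with means of 2743 ± 1122 (SD, n = 4) and 6938 ± 3714 (SD, n = 4), and control replicate 4 was the highest tumor. Col5a3 (chr9:20770050-20815067, minus strand), a chain of type V collagen that helps to set fiber width, had 349, 298, 338 and 173 normalized counts with V-125. Its control tumors had 431, 526, 445 and 472. Control values of Col5a3 were close together, with an SD of 41.9 around 469, while V-125 replicate 4 stood below the other V-125 tumors.

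Fibril-associated (FACIT) collagens sit on the surface of banded fibers, and 4 of them were listed, all with lower means. Col12a1 (chr9:79598991-79718831, minus strand), which binds type I collagen fibers, had 498, 410.3, 339.6 and 158 normalized counts in the V-125 tumors. In the controls it had 717, 977, 657 and 1066, and the groups did not overlap. The control mean was 2.43 times the V-125 mean. Col16a1 had 1337, 948, 1571 and 668 normalized counts with V-125 and 3807, 2292, 1065 and 1589 in controls. The groups of Col16a1 overlapped, because control replicate 3 was below 2 of the V-125 tumors and control replicate 1 was far above the rest. Col9a2 and Col20a1 also overlapped, with log2 ratios of means of -0.58 and -0.63. Col9a2, a chain of the cartilage type IX collagen, was still at 80.1 ± 20.3 FPKM (SD, n = 4) with V-125, against 120.1 ± 10.8 FPKM (SD, n = 4) in controls. FPKM is the read count scaled to gene length and to the reads of the tumor, the scale used here to compare levels between genes.

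Col25a1 (chr3:130131501-130599877, plus strand), a collagen with a transmembrane segment, was a low-count gene, with 8 to 26 raw reads per V-125 tumor. It had 8.18, 23.7, 25.8 and 23.3 normalized counts with V-125 and 28.8, 53.2, 31.9 and 59.8 in controls. The groups did not overlap, and V-125 replicate 1 was well below the other treated tumors.

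Type IV collagen makes the network of the basement membrane, and its chains Col4a5 and Col4a6 were listed for V-125. The genes lie head to head on chromosome X, 1308 bases apart. Col4a6 (chrX:141165403-141474076, minus strand) had 795, 1184, 1727 and 983 normalized counts with V-125. In controls it had 1494, 2763, 1494 and 2797. Only V-125 replicate 3 of Col4a6 reached the control range, whose values fell into a lower pair, replicates 1 and 3, and a higher pair, replicates 2 and 4. Col4a5 (chrX:141475385-141689234, plus strand) had 1097, 1839.9, 1896 and 1485 normalized counts with V-125 and 1998, 3049.5, 1883 and 3609 in controls. Its V-125 replicate 3 lay just above control replicate 3, so these groups overlapped as well.

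Among the members, 4 collagen genes varied together from tumor to tumor within groups. After the mean of each group was subtracted from log2(normalized count + 1), the likest pairs of members over the 8 tumors were Col11a1 with Col4a5 (Pearson r = 0.98), Col4a5 with Col4a6 (r = 0.94) and Col11a1 with Col25a1 (r = 0.93). Itga8, an integrin subunit, varied with these 4 genes too (r = 0.92 with Col4a5, 0.91 with Col25a1, 0.90 with Col11a1, 0.86 with Col4a6). Outside these 4 genes, the collagen pairs Col12a1 with Col5a3 (r = 0.91) and Col20a1 with Col9a2 (r = 0.82) were also alike. So was Adamts2 with Col12a1 (r = 0.92). Some collagen pairs were not alike in this way, such as Col11a1 with Col5a3 (r = 0.03) and Col16a1 with Col25a1 (r = -0.24). These values describe 8 tumors that share their library and size factor across genes, and carry no test. Control replicates 2 and 4 were among the highest 2 controls in 18 and 16 of the 23 members, while control replicate 3 was the lowest control in 11 and control replicate 1 in 9. V-125 replicate 3 was among the highest 2 treated tumors in 17 members, and V-125 replicates 1 and 4 were the lowest in 10 and 9.

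**Figure D2:**
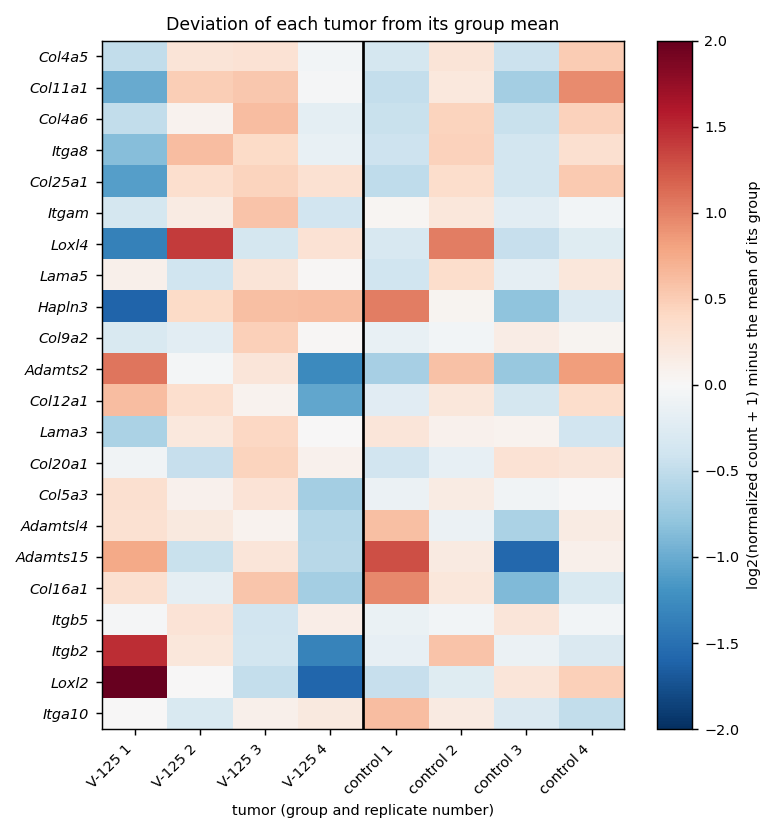
Deviation of log2(normalized count + 1) of each tumor from the mean of its own group, for 22 of the 23 members listed for V-125 (rows) in 8 tumors (columns, group and replicate number). Red is above and blue below the group mean. Rows are ordered by likeness to Col4a5, and the top rows share low values in V-125 replicate 1 and control replicates 1 and 3 and high values in control replicates 2 and 4, while Loxl2 and Itgb2 are highest in V-125 replicate 1.

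The promoters of Col11a1, Col25a1, Col4a5 and Col4a6 are shown because these genes make up the 3 likest pairs of members. Itga8, which was nearly as like them, and the pair Adamts2 and Col12a1 were left out by stopping at 3 pairs. Each sequence is the RefSeq window on GRCm38.p6 from 250 bases before to 50 after the start, written 5′ to 3′ on the strand of the gene, and capitals mark a GC box (GGGCGG or its complement CCGCCC) or a nuclear receptor half-site (AGGTCA or its complement TGACCT). The window of Col11a1 is chr3:114030290-114030589 on the plus strand, that of Col25a1 chr3:130180595-130180894 on the plus strand, that of Col4a5 chrX:141475169-141475468 on the plus strand and that of Col4a6 chrX:141474027-141474326 on the minus strand. The RefSeq start of Col25a1 lies inside the span that the deposited table gives for the gene.
Col11a1: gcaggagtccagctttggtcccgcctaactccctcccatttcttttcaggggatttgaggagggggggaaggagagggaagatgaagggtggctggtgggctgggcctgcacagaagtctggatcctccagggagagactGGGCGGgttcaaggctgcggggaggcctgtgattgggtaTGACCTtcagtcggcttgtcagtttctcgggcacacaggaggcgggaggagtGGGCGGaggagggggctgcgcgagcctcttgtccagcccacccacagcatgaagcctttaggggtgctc
Col25a1: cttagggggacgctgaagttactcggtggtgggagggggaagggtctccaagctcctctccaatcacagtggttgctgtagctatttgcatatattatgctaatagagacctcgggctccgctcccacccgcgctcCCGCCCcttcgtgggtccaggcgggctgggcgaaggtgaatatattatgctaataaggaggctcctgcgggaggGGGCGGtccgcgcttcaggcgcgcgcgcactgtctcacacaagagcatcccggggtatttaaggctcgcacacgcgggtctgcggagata
Col4a5: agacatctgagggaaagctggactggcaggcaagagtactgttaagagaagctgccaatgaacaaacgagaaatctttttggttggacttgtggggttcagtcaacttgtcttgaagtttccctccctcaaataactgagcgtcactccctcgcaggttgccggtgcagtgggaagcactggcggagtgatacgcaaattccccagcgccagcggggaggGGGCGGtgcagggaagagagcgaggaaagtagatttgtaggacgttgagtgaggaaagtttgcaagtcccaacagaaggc
Col4a6: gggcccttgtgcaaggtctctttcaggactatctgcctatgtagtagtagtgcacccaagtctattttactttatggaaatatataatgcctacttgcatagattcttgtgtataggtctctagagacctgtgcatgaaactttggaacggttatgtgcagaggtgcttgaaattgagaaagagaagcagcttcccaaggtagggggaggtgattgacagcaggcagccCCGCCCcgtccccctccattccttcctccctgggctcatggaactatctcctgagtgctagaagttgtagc

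Each of the 4 windows held at least 1 GC box. In Col4a5 and Col4a6 the 1 box began 30 and 21 bases before the start, and in Col11a1 the boxes nearest to and farthest from the start began 19 and 110 bases before it. Col11a1 alone of the 4 held a half-site, 71 bases before its start. Promoter windows were found for 29 members, 31 windows in all. On either strand, a GC box was present in 64.5% of them and in 35.7% of all 32851 windows, and their median GC content was 59% against 52.7% for all. The nuclear receptor half-site, the element at which RXR partners bind as part of longer repeats, was present in 16.1% of member windows and 16.3% of all. An AP-1 site (TGACTCA or TGAGTCA) was present in 6.45% against 5.20%, and the hypoxia response core ACGTG in 16.1% against 19.6%. A match describes these letters only, and binding was not measured.

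Among the laminins, Lama3 and Lama5 went in different directions. Lama3, the alpha chain of the laminin that anchors epithelial cells at hemidesmosomes, had 38.8, 70.3, 81.4 and 61.3 normalized counts with V-125. In controls it had 33.4, 30.1, 29.6 and 21.3. All V-125 tumors were above all controls, and the V-125 mean was 2.2 times the control mean, at a low level of 25 to 37 raw reads per control tumor. Lama5, the alpha chain of most adult basement membranes, had 3237, 2299.6, 3620.3 and 3075 normalized counts with V-125. Its control tumors had 3052, 5130.3, 3563 and 4702, which overlapped the treated range. Lama5 had the smallest difference of the 23 members, a log2 ratio of means of -0.43.

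The integrin subunits divided into lower alpha and higher beta means. Itga10 (chr3:96645584-96664519, plus strand), the collagen-binding subunit of chondrocytes, had 28.6, 22.8, 30.8 and 32.8 normalized counts with V-125. In controls it had 80.7, 58.96, 42.3 and 36.7, above all treated tumors, with control replicate 4 closest to them. Itga8, whose dimer with Itgb1 binds nephronectin and fibronectin, overlapped between groups, at means of 2167 ± 880.4 (SD, n = 4) and 3843 ± 1189 (SD, n = 4). Itgb5, the beta subunit of the vitronectin receptor alpha-v beta-5, had the highest control level after Col9a2 among the members, at 109.9 ± 12.8 FPKM (SD, n = 4). It had 10403, 12710.1, 8028 and 11527 normalized counts with V-125 and 6389, 6751, 8251 and 6767 in controls. V-125 replicate 3 alone was within the control range, below control replicate 3.

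Itgam and Itgb2 encode the alpha and beta chains of one leukocyte receptor, Mac-1 of myeloid cells, and differed in direction. Itgam (chr7:128062640-128118491, plus strand) had 31.7, 45.6, 60.6 and 30.7 normalized counts with V-125 and 78.4, 89.01, 65.5 and 73.4 in controls, with no overlap. Itgb2, the beta chain shared by all receptors of this leukocyte group, had 757, 316, 209.5 and 107 normalized counts with V-125. Its controls had 148, 246, 152 and 135, so the higher V-125 mean of Itgb2 came with a wide spread, and V-125 replicate 4 was the lowest of all 8 tumors. Leukocyte genes outside the members differed among themselves, and Laptm5, Fcgr1 and Cd2 were among those highest in V-125 replicate 1. Laptm5, a lysosomal protein of blood cells, had 2661, 900.5, 805 and 584 normalized counts with V-125 and 755, 777, 392 and 522 in controls. Fcgr1, a macrophage receptor for antibodies, had 501, 114, 130.1 and 100.5 and 137, 138, 59.1 and 90.5. Cd2, of T and NK cells, had 195, 10.4, 23.8 and 3.17 with V-125 and at most 5.59 in any control. In each of these 3 genes V-125 replicate 1 was the highest tumor, as it was for Itgb2, while Itgam there had 31.7 normalized counts, below every control. Lcp1, an actin-bundling protein of leukocytes, had a lower mean with V-125, at 6600.2 ± 1109.8 (SD, n = 4) against 8499.8 ± 884 (SD, n = 4), and V-125 replicate 1 was below 3 of the 4 controls. The macrophage gene Cx3cr1 was highest in V-125 replicate 2, at 1105 against 1018 in replicate 1.

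The leukocyte list had 2 of 9 genes in the V-125 table, Laptm5 with a higher and Lcp1 with a lower mean, summing mostly through Lcp1 to 6048 to 10785 normalized counts with V-125 and 7933 to 9745 in controls. The macrophage list had 3 of 12, all with higher means, summing to 1070 to 1957 against 786 to 1227. The T and B cell list had 1 of 11, Cd2, which was at 0 in control replicate 1. The part of leukocyte number in the Itgb2 and Itgam values was not tested. Without V-125 replicate 1 the limma-voom log2 fold change of Itgb2 was 0.25.

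**Figure D3:**
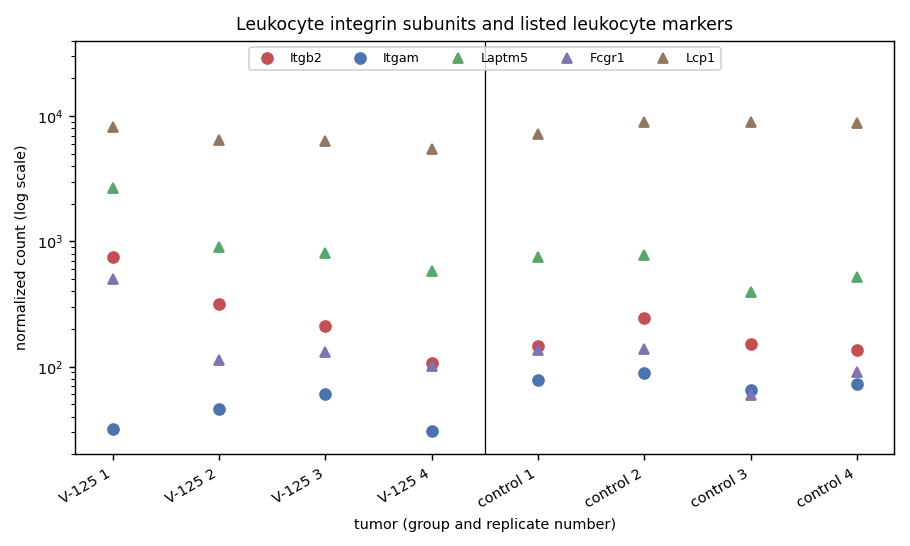
Normalized counts on a log scale (vertical axis) of the integrin subunits Itgb2 and Itgam (circles) and the leukocyte genes Laptm5, Fcgr1 and Lcp1 (triangles) in each of the 8 tumors (horizontal axis, group and replicate number). Itgb2, Laptm5 and Fcgr1 are highest in V-125 replicate 1, and Itgam is lower in all V-125 tumors than in all controls.

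Among proteases and matrix organizers, Adamtsl4 (chr3:95676201-95687917, minus strand), a catalytically inactive relative of the Adamts enzymes that associates with fibrillin microfibrils, had 119.6, 111, 101 and 64.5 normalized counts with V-125. Its controls had 285, 173, 121 and 211. The groups were separated by a narrow gap, between V-125 replicate 1 and control replicate 3, and overlapped on the FPKM scale. Adamts15, an aggrecan- and versican-cutting protease, had 451, 195, 314 and 179.8 normalized counts with V-125 and 196, 90.2, 26.4 and 86.2 in controls. Control replicate 1 of Adamts15 was above 2 of the treated tumors, so the groups overlapped although the V-125 mean was 2.86 times the control mean. Adamts2, which removes the amino-terminal propeptide of procollagen, had a log2 ratio of means of -0.98 with overlap. No Mmp, Timp or Adam gene was listed for V-125.

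Hapln3 (chr7:79115102-79131018, minus strand), a link protein that fastens hyaluronan to proteoglycans such as versican, had the lowest V-125 mean relative to control among the 22 fitted members. It had 3.07, 15.2, 17.9 and 17.98 normalized counts with V-125. In controls it had 127, 64.7, 35.1 and 51.2, and the control mean was 5.14 times the V-125 mean. All 4 treated tumors were below the lowest control, control replicate 3, and V-125 replicate 1 rested on 3 reads. The lysyl oxidases Loxl2 and Loxl4 were both listed with lower means. Loxl2 had 225, 53.2, 37.7 and 16.9 normalized counts with V-125 and 149.9, 175, 245 and 288 in controls. The other 3 treated tumors of Loxl2 were below every control, but V-125 replicate 1 was within the control range. Loxl4 (chr19:42593982-42612813, minus strand) had 0, 5.7, 0.993 and 2.11 normalized counts with V-125 and 8.07, 21.96, 7.19 and 8.54 in controls, from 0 to 6 and 7 to 19 raw reads. At this depth V-125 replicate 1, with 0 reads, allowed up to 3 reads of counting error, and no fold is given.

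**Figure D4:**
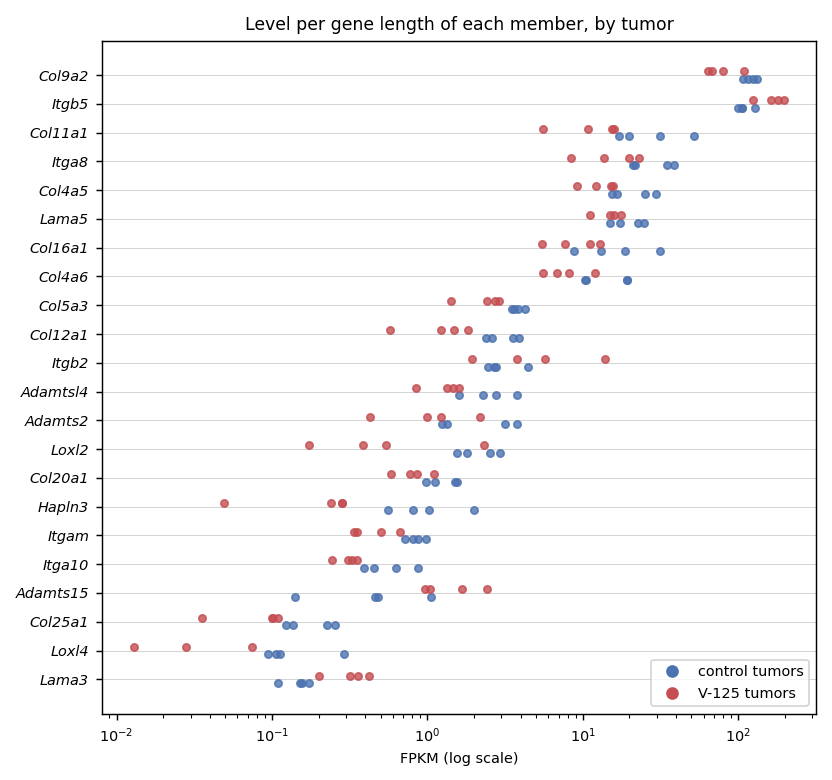
FPKM on a log scale (horizontal axis) of 22 of the 23 members listed for V-125, 1 point for each tumor, ordered by the mean of the control tumors. Col9a2 and Itgb5 stand above the rest, at control means of 120.1 and 109.9, and Lama3 is last at 0.148. A tumor at 0 is not drawn, which applies to V-125 replicate 1 of Loxl4.

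Some members share annotated exons with another gene, and the strand setting of the counting is not given in the sources used here. Itgam shares 3450 exon bases with Gm49368 and Itga10 shares 1739 with Gm42957, both on the same strand, so their values are uncertain between the genes. Of the other members listed for V-125, Itga8, Lama3 and Loxl2 overlap a gene on the opposite strand, and Loxl2 and Col20a1 one on the same strand. Their reads cannot be assigned beyond doubt where exons overlap.

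No member passed an adjusted p of 0.05 in limma-voom. The fit used the 1333 listed genes left by a filter on low counts, 22 of the 23 members among them, with adjustment over the 15310 genes that the study tested, and it called 0 members and 0% of all fitted genes. The smallest adjusted p of a member was 0.513. Variances in this fit were estimated from the listed genes alone, all selected on the same difference. The fit is therefore not a repeat of the study's own test, which covered all tested genes. The paper reports genes that passed a threshold on adjusted p with V-125. The absence of calls here describes this fit only. At an unadjusted p under 0.05, 15 of the 22 fitted members passed, 12 lower and 3 higher, beside 31.9% of all fitted genes lower and 34.5% higher. The edgeR quasi-likelihood test also called 0 members, with 16 at an unadjusted p under 0.05, as were 953 of all 1333 fitted genes. DESeq2 called 2 members, Col12a1 (adjusted p = 0.038) and Hapln3 (adjusted p = 0.0226), and 9.30% of all fitted genes. In limma-voom their log2 fold changes were -1.36 ± 0.33 (SE, n = 4) and -2.35 ± 0.68 (SE, n = 4). The median log2 fold change of the 22 fitted members was -0.84, and that of all fitted genes 0.36.

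The limma-voom log2 fold changes of the members differed in size more than in direction. The largest in size were those of Hapln3, Loxl2, at -1.99 ± 0.60 (SE), and Adamts15, at 1.80 ± 0.54 (SE). Loxl2 was at -2.66 without V-125 replicate 1, and edgeR and DESeq2 gave -1.37 for it. Those of Col11a1, Col4a6 and Lama3 were -1.31 ± 0.42, -0.86 ± 0.30 and 1.12 ± 0.38 (SE). Itgb5 had a small but tight value of 0.59 ± 0.17 (SE), and Itgb2 a loose one of 0.74 ± 0.54 (SE).

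**Figure D5:**
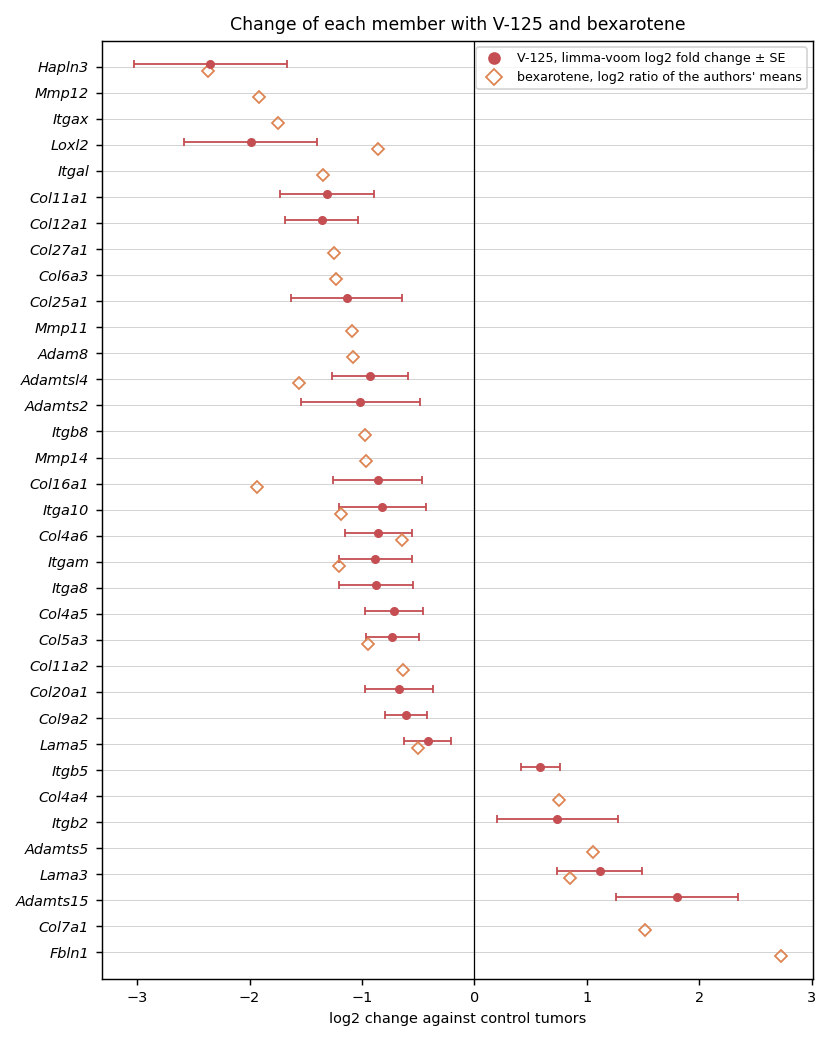
Log2 change against control tumors (horizontal axis) for 35 of the 37 members. Filled circles with bars are limma-voom log2 fold changes with SE for V-125 and open diamonds are log2 ratios of the authors' bexarotene and control means, which have no error. Loxl4 was left out by the count filter and is not drawn. The members with both symbols have them on the same side of 0.

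With bexarotene, the listed members were again mostly lower, and they included leukocyte integrins and metalloproteinases that were not listed for V-125. Only the authors' group means were used for this comparison, so its values carry no error and no test. Of the 25 members, 20 (80.0%) had a mean below control, beside 56.7% of all genes listed for bexarotene. The median log2 ratio of means was -0.98 for the members and -0.56 for all listed genes. A log2 ratio below -1 was reached by 12 members, where 28.4% of all listed genes reached it, and one above 1 by 3 members, where 16.2% did.

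Among the collagens, Col16a1 had authors' means of 569 normalized counts with bexarotene and 2177 in controls, a log2 ratio of -1.94. Col27a1, a fibrillar collagen of cartilage, had 288 and 685. Col6a3, a chain of the beaded microfibrils around cells, had 448 and 1049. Against these lower means, Col7a1, the collagen of the anchoring fibrils below the epidermis, had 384 with bexarotene and 134 in controls. Its log2 ratio was 1.52, and the only other collagen with a higher mean was Col4a4, at 0.76. The lower collagens Col5a3, Col4a6 and Col11a2 had log2 ratios of -0.94, -0.65 and -0.64.

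All 5 integrin subunits listed for bexarotene had lower means. Itgax, the alpha subunit of dendritic cells and some macrophages, had 48.1 normalized counts with bexarotene and 162 in controls. Itgal, the alpha subunit of the lymphocyte receptor LFA-1, had 25.3 and 64.6. Itgam had 33.1 and 76.1, so the 3 leukocyte alpha subunits had log2 ratios from -1.75 to -1.20. Itgam and Itgax lie 11055 bases apart on chromosome 7. Itga10 had a log2 ratio of -1.19, and Itgb8, whose dimer with Itgav releases active Tgf-beta, one of -0.98. In the same table, 4 of 5 listed leukocyte markers and all 7 listed macrophage markers had lower means, among them Cd14 at 310.1 against 1548 and C1qa at 752 against 2023. The part of leukocyte number in the integrin values was not tested.

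The 3 metalloproteinases and 1 Adam gene listed for bexarotene also had lower means. Mmp12, the macrophage elastase, had 13.6 normalized counts with bexarotene and 51.2 in controls. Mmp11, a stromal protease of carcinomas, had 42.2 and 89.7, and the membrane-bound collagenase Mmp14 had a log2 ratio of -0.96. Adam8, a protease of leukocytes, had 57.03 and 121. The aggrecan-cutting enzyme Adamts5 went the other way, with 178 against 85.8. Fbln1, a fibulin of basement membranes and elastic fibers, had the largest log2 ratio of all members, 2.73, from 13.6 normalized counts in controls to 90.1 with bexarotene.

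Members listed for both compounds numbered 11, which is 47.8% of the V-125 members and 44% of the bexarotene members. Over all genes, the 1589 listed for V-125 and the 1784 listed for bexarotene made up 2876 different genes. Many non-members were therefore in both lists as well, and how many of them had the same direction was not counted. The comparisons share their control tumors, so their directions are not independent, and the difference between the compounds was not tested because the authors' means alone were used for the bexarotene tumors. At the same dose and duration, 10 of the 11 had a lower mean with each compound and Lama3 a higher mean with each. The authors' means with bexarotene and in controls were 13.4 and 69.1 for Hapln3, 66.7 and 196 for Adamtsl4, and 23.9 and 54.4 for Itga10. The log2 ratios of means with V-125 and bexarotene were -2.36 and -2.37 for Hapln3, and -0.95 and -1.94 for Col16a1. They were -0.99 and -1.56 for Adamtsl4, -0.86 and -1.20 for Itgam, and -0.93 and -1.19 for Itga10. For Loxl2 they were -1.37 and -0.86, and for Lama3 1.14 and 0.85. Further pairs were -0.87 and -0.65 for Col4a6, -0.69 and -0.94 for Col5a3, and -0.43 and -0.50 for Lama5. Of these genes, 7 lay farther from control with bexarotene, Hapln3 only marginally, and Col4a6, Loxl2 and Lama3 were among those farther with V-125. Col16a1 had the widest gap between its ratios, with a bexarotene mean of 569 below every V-125 tumor.

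Other genes of matrix assembly, which are not members, were also listed mostly with lower means. Of 72 such genes, 13 were listed for V-125, 2 higher and 11 lower, and 13 for bexarotene, 3 higher and 10 lower. Comp, a cartilage matrix protein that binds collagen, went against this, with 8382, 21239, 33186 and 21612 normalized counts with V-125 and 791, 7270.0, 4500.4 and 3775 in controls. All V-125 tumors of Comp were above all controls, and its authors' means were 19204 with bexarotene and 4059.5 in controls. The 2 other assembly genes with the largest V-125 log2 ratios were Has1, a hyaluronan synthase, and Matn2, a matrilin, at -4.60 and -1.89. Has1 was near 0, with at most 10.4 normalized counts in a tumor. Matn2 overlapped between groups, with control replicate 1 at 323 normalized counts and the other controls at 36.7 to 71.7. With bexarotene, the largest were Matn4 at -2.90, Spock1 at 2.65 and Bmper at 2.52.

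Of 32 receptor and adhesion genes, 5 were listed for V-125, 1 higher and 4 lower, and 10 for bexarotene, 1 higher and 9 lower. Cd44, the hyaluronan receptor, was the higher gene in each table, with log2 ratios of 0.82 and 0.75. The focal adhesion proteins Pdlim7 and Zyx had -1.13 and -0.92 with V-125 and -1.26 and -0.84 with bexarotene. Of 30 other matrix-degrading enzymes and inhibitors, 5 were listed for V-125, 1 higher and 4 lower, and 7 for bexarotene, 1 higher and 6 lower. The protease inhibitor A2m had -2.38 and -1.68, while Pcsk6 and Serpine2 had -1.16 and -0.82 with V-125, and Ctss and Cst3 -0.97 and -0.90 with bexarotene. A2m, Pcsk6 and Serpine2 each overlapped between V-125 and control tumors. Control replicate 1 of A2m, at 1898 normalized counts, was far above the other controls, at 230 to 580. Of 23 Tgf-beta and matricellular genes, the V-125 list held 4 and the bexarotene list held 2, all with lower means. Inhba, the activin A subunit, had -1.40 and -1.92, Tgfb3 had -0.65 and -0.88, and Wisp1, a matricellular protein, had -1.09 with V-125.

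Markers of the cell types that make matrix were listed in part. Of 17 genes chosen as fibroblast markers, 2 were listed for V-125, Ly6c1 and Dpep1, both with higher means. Pdgfra, Thy1 and Fap, also among the 17, were not listed. The sum of Ly6c1 and Dpep1, mostly from Ly6c1, was 247 to 401 normalized counts with V-125 and 126 to 141 in controls. Which cells held the Ly6c1 RNA was not measured, so this sum does not give the level of fibroblasts. Dpep1 overlapped between groups, at means of 26.3 with V-125 and 6.16 in controls. Of 12 pericyte and smooth muscle markers, Acta2 and Mcam were listed, both with lower means, at a summed 594 to 1136 against 1228 to 1928. Acta2 and Mcam each overlapped between groups, though their sums did not. Of 10 basal and myoepithelial markers, Acta2 and Trp63 were listed, again lower, at 97.3 to 609 against 525 to 1032, and Trp63 was at 0 in V-125 replicate 1. Of 13 luminal markers, 6 were listed, 4 lower and 2 higher, at 46554 to 55396 against 59494 to 84865. That sum came mostly from Epcam, the only 1 of the 6 without overlap. Of 16 endothelial markers, 5 were listed for V-125 and all had higher means, 3 of them without overlap. The 5 summed to 3452 to 4593 against 2182 to 2696, and 0 were listed for bexarotene. Adipocyte and skeletal muscle markers were listed for V-125 in 1 of 10 and 2 of 11. With bexarotene, 5 of 6 listed luminal markers had lower authors' means (Krt8, Krt18, Elf3, Cldn3 and Cldn7), with log2 ratios from -1.38 to -0.47, and Prlr a higher one. The 1 listed fibroblast marker, Pdgfrb, had a log2 ratio of -0.74. The pericyte and smooth muscle genes Kcnj8 and Mcam were lower, at -0.67 and -0.72, and Myh11, which is also on the basal list, was higher at 1.52. The basal gene Krt17 had authors' means of 0.275 against 13.1, Oxtr was lower at -0.87, and the adipocyte genes Fabp4 and Plin4 were higher, at 1.75 and 2.22. The part of these cell types in the matrix gene values was not tested.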

How the data were processed

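Reads were aligned with STAR 2.6.1d and counted per gene with featureCounts 1.5.0-p3, per the submitters' processing notes, and the study used limma. The genome build is not given in the sources used here, but all 23 members listed for V-125 have the coordinates of the GENCODE M21 annotation of GRCm38. For V-125 and control, the authors deposited raw counts, normalized counts (a signal, the count over 1 size factor per tumor) and FPKM for each of 8 tumors, and for bexarotene their group means of the normalized counts. The tables also hold the authors' fold changes and p-values, used here only to find where the lists stop and that 15310 genes were tested for V-125. Raw counts were fitted with voom in limma 3.58.1 (R 4.3.3), with the authors' size factors, filterByExpr and Benjamini-Hochberg adjustment over those 15310. The alternatives were edgeR 4.0.16 and DESeq2 1.42.0, other scalings, no filter, a replicate block, adjustment over listed genes and leaving out each tumor. The fits were tested on simulated data with larger changes and less spread between tumors than in most members. That test does not show how well changes of the size seen in the members are found. Permutation tests over the 70 assignments of tumors were exact and two-sided, and intervals from few reads cover counting error alone.

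Members and gene lists were chosen with earlier results of these data known. The values of 1 member are not reported here, though it is in the counts. Values by tumor are given for members without overlap and members listed for both compounds, and those of Col4a5, Itgb5, Itgb2, Adamts15, Laptm5, Fcgr1, Cd2, Lcp1 and Cx3cr1 and of the listed cell type markers were added after they had been seen. Authors' means are given for bexarotene members past an absolute log2 ratio of 1. Of each pathway list, the 3 genes with the largest absolute log2 ratio per table are named. Cd14 and C1qa were likewise picked after their values were seen.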

Additional observations from a re-analysis of the deposited data

Results flagged for a closer look

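In 46 groups of 4 tumors, 23 members in each of the V-125 and control groups, the gap of 1 tumor to its nearest neighbor was compared with the range of the group, and 3 tumors stood apart. Chance flags about 1 in 20 groups in this way. Col25a1 was at 8.18 normalized counts in V-125 replicate 1, with the other V-125 tumors at 23.3 to 25.8. Itgb2 was at 246 in control replicate 2, with the other controls at 135 to 152. Loxl4 was at 22.0 in control replicate 2, with the other controls at 7.19 to 8.54.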

How the results depend on the processing

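Of the settings that can move the number of members called with V-125, DESeq2 gave 2, adjustment over the listed genes 1 and an unadjusted p under 0.05 gave 15, against 0 in limma-voom, and the cause was not tested for DESeq2. Of all 1333 fitted genes, these settings passed 124, 151 and 885. Every other setting called 0 members. Members higher without overlap numbered 1 to 2 and those lower without overlap 9 to 13 when 1 tumor was left out. Leaving out a tumor cannot make separated groups overlap, so these counts could only stay or rise. On the FPKM scale, 8 members were lower and 1 higher without overlap. The same numbers held among members with a mean of at least 10 raw counts. Counts over all listed genes were not made when 1 tumor was left out, on the FPKM scale or at this minimum. Without V-125 replicate 3, Col20a1, Col4a5, Col4a6, Col9a2 and Itgb5 no longer overlapped, without control replicate 3, Col16a1, Col4a5 and Itgb5 among others, without control replicate 1, Adamts15, Col20a1 and Col9a2, without V-125 replicate 1, Adamts2 and Loxl2, and without V-125 replicate 2, Itga8. With bexarotene, 12 members lower and 3 higher exceeded an absolute log2 ratio of 1. The median log2 fold change of the members ranged from -0.94 to -0.70 when 1 tumor was left out, and all 330 values of single members kept their sign, with Col12a1 and Hapln3 passing the threshold only as given above. The log2 fold change of Loxl2 was -2.66 without V-125 replicate 1 and -1.37 in edgeR and DESeq2, and the cause was not tested. That of Itgb2 ranged from 0.25 to 1.17 and that of Col16a1 from -1.15 to -0.53 when 1 tumor was left out.

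With the replicate number as a replicate block, the median log2 fold change of the members was -0.86, 0 members were called and 13 passed an unadjusted p under 0.05. Of all 1333 fitted genes, 840 passed that unadjusted threshold with the block. Deviations of tumors with the same number had correlations of 0.089, -0.054, -0.17 and 0.043, and the labels do not say that a number marks anything shared.

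The lists hold genes selected at an unadjusted p under 0.05, which limits each V-125 value to a description, and genes with few reads, such as Loxl4 at 0 to 6 in V-125 tumors, have low precision. Bexarotene values have no error. Cell types were not separated.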
